A study of Homo sapiens with 9 samples.

Results

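The G2/M and mitotic genes are 39 genes of cell division, taken by gene symbol from the annotation of the array, out of 19775 genes that the array measured with a probe set naming a single gene. The probe set with the highest mean over the 9 arrays stood for each gene, and all 39 genes were measured, by 77 probe sets in all. Jurkat, a human T lymphocyte leukaemia cell line, was given 1 of 3 treatments with 3 arrays each. The nsEP group received 100 pulses of 10 ns at 150 kV/cm (nanosecond electrical pulses), the heat shock group was warmed in a water bath inside the same type of cuvette, and the sham group was handled like the nsEP group on the pulser with no power applied. RNA was collected 4 h after exposure and hybridised to 1-colour Affymetrix human arrays. Nothing in the sources used here states that the cells were synchronised, and the mix of phases on each array was not measured. A smaller share of dividing cells therefore cannot be told apart from less RNA per dividing cell.

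Entry into mitosis is driven by CDK1 bound to a B-type cyclin and a small CKS subunit, and is triggered when CDC25 phosphatases remove inhibitory phosphates from CDK1. Polo and Aurora kinases, kinesin motors and kinetochore proteins then build the spindle, the spindle checkpoint holds cells until chromosomes are attached, and the anaphase-promoting complex ends mitosis by marking cyclin B and securin for destruction. The transcripts of these genes accumulate together in G2 and M, largely through the MuvB complex, which binds a promoter motif called the CHR, and through NF-Y, which binds the CCAAT box.

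The shared promoter letters were present in most of the members. RefSeq promoter windows of 300 bases (250 before to 50 after the gene start, GRCh38.p14) were matched by symbol for 33 of the 39 genes. The CHR letters TTTGAA were found, on either strand, in 22 of the 33 windows (66.7%), against 15.2% of the 35116 windows in the table. CCAAT was found in 27 of 33 (81.8%), against 34.6% of all windows, and 20 of 33 (60.6%) held both motifs, against 5.90% of all windows. A pair of heat shock element units, GAANNTTC, was found in 3 of 33 (9.09%), against 6.77% of all windows. The TTTGAA and CCAAT letters do not overlap as motifs, and a match describes the letters only. The windows of 4 members are shown because CKS2 and KIF11 were 2 of the 3 members called after heat shock, CKS1B is the paralogue of CKS2 that was not called, and KIF2C held neither motif. They lie at chr9:89310945-89311244 for CKS2, chr1:154974431-154974730 for CKS1B, chr10:92592880-92593179 for KIF11 and chr1:44739587-44739886 for KIF2C, all on the plus strand of GRCh38.p14, and each covers upstream sequence and the first transcribed bases. Capitals mark the letters of the CHR and of the CCAAT box on either strand, read 5′ to 3′.
CKS2: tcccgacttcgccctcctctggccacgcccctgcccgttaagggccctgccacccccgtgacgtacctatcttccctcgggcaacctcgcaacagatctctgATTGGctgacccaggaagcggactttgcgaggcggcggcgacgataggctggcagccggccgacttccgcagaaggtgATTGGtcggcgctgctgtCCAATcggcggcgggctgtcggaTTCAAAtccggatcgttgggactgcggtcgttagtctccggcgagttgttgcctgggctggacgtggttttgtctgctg
CKS1B: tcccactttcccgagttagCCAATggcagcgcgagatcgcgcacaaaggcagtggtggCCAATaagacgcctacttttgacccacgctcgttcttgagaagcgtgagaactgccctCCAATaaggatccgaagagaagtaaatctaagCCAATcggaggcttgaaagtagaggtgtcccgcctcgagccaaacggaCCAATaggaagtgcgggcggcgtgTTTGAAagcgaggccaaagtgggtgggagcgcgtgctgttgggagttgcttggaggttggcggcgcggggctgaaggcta
KIF11: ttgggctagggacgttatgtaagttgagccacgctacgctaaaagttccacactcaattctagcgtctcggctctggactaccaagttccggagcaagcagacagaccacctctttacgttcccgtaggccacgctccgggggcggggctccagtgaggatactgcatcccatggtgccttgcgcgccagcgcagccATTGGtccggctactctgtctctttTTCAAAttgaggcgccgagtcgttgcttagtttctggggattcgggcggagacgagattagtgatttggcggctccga
KIF2C: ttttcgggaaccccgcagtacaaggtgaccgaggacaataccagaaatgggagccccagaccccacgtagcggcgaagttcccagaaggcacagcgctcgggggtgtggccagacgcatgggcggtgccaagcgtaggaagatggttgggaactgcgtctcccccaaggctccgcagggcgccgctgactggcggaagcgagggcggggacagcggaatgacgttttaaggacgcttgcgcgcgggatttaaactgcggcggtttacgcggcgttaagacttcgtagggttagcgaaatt
The window of CKS2 held 1 CHR match and 3 CCAAT matches, that of CKS1B 1 and 5, that of KIF11 1 and 1, and that of KIF2C held none. Members with and without the CHR letters covered overlapping ranges of heat shock ratio. The 22 members with the CHR had a median log2 ratio of heat shock over sham of -0.04 (range -1.22 to 0.42), and the 11 without it had a median of 0.05 (range -0.58 to 0.42).

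The members were bright on the arrays. The median of their mean log2 signals was 11.94, against 7.41 for all genes, and 35 of the 39 lay in the brightest quartile of genes (mean log2 signal above 10.07). The dimmest was PLK1, with a mean log2 signal of 8.84, brighter than 62.6% of genes. Their spread between arrays of 1 group was accordingly small, with a median pooled SD of 0.24 on the log2 scale, against 0.38 for all genes and 0.21 for the brightest quartile. Bright genes were therefore used as a second background beside all genes.

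The arrays carried some differences that touch these results. All 12 T lymphocyte markers were brighter than the median gene, as the labelled cell line requires, with summed signals of 77080 to 99180 in nsEP arrays, 69400 to 89340 in heat shock arrays and 74640 to 80760 in sham arrays. In the B lymphocyte, myeloid, erythroid and epithelial or fibroblast lists 1 marker each was brighter than the median gene and none was in the brightest quartile. The summed signals of 3 of these lists did not overlap between heat shock and sham. The myeloid list summed to 509 to 617 on heat shock arrays and 240 to 304 on sham arrays, the erythroid list to 322 to 375 on heat shock arrays and 238 to 315 on sham arrays, and the epithelial and fibroblast list to 1940 to 4847 on heat shock arrays and 384 to 564 on sham arrays. All 4 measured myeloid markers had log2 ratios of heat shock over sham above 0, at 4.78 for CD14, 2.77 for LYZ, 0.50 for ITGAM and 0.40 for CSF1R. Of all 19775 genes 11702 lay above 0. The ratios of CD14 and LYZ started from very dim signals, with sham means of 2.29 and 3.20 on the log2 scale, against a median of 7.41 over all genes. Of these lists CD14 and COL1A1 were called higher after heat shock, and the T lymphocyte markers CD2, CD28 and TRAT1 were called lower. The part of these markers in the results was not tested. The nsEP replicate 3 array stood apart on the second principal component and had the highest 3′ to 5′ log2 ratio of GAPDH, 0.56, against -0.22 and -0.11 on the other nsEP arrays, -0.06 to -0.01 on heat shock arrays and -0.05 to 0.26 on sham arrays. Its ratio of ACTB was 1.24, against 0.31 and 0.37 on the other nsEP arrays, 0.62 to 0.79 on heat shock arrays and 0.52 to 1.26 on sham arrays, of which sham replicate 1 was the highest of all. The median log2 ratio of all genes was -0.02 for nsEP over sham and 0.14 for heat shock over sham on the deposited scale, so ratios are also given relative to that median.

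The first comparison asked whether the pulses altered transcripts of the division machinery by 4 h. None of the 39 genes was called higher or lower in nsEP cells than in sham cells by limma at an adjusted p under 0.05, and the methods' t-test with Benjamini-Hochberg adjustment called none either. No member had an unadjusted p under 0.05, against 5.40% of all genes and 5.04% of the brightest quartile. Of all genes, 0.0506% were called higher and 0.0101% lower in this comparison (0.101% and 0.0202% in the brightest quartile), so a count of 0 among 39 is near that background. The log2 ratios of nsEP over sham ran from -0.24 for ANLN, a scaffold of the contractile ring, to 0.26 for CKS1B, and the smallest adjusted p was 0.797. The median ratio of the members was -0.03, or -0.01 relative to the median of all genes. That value was 0.10 with the nsEP replicate 3 array left out and -0.11 with nsEP replicate 1 left out.

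The standing probe sets gave a bound on the response of each gene to the pulses, with each interval taken singly. The 95% intervals of all 39 log2 ratios lay within 0.78 of 0, a 1.71-fold change, with the widest bound at AURKA and the narrowest, 0.35 or 1.27-fold, at MAD2L1. The median bound was 0.51, or 1.42-fold. These bounds do not cover the other probe sets of the members. The 14 of those in the brightest quartile had ratios from -0.52, for CENPF, to 0.32. The dimmer ones ran from -1.69, for KIF23, to 1.95, for CDC25C, without a call. By the standing probe sets none of the members had a ratio over 0.5 in size, against 24.2% of all genes and 2.67% of genes in the brightest quartile. CKS1B was the only member whose 3 nsEP arrays all lay above the 3 sham arrays, and none lay wholly below them, against 4.56% and 5.41% of all genes and 3.94% and 5.04% of the brightest quartile.

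**Figure D1:**
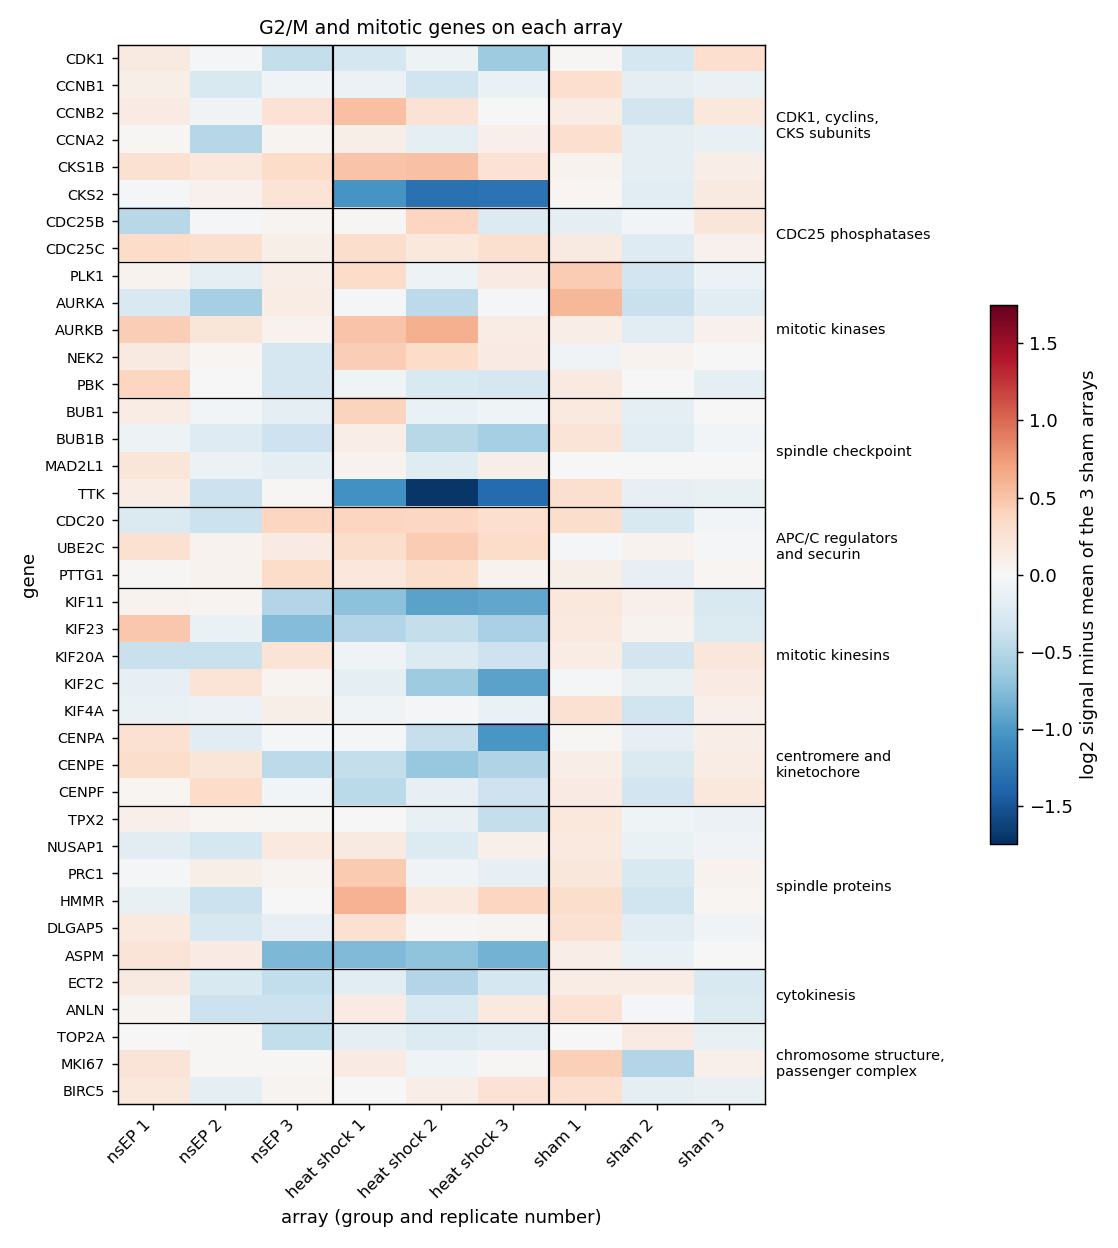
Log2 signal of each G2/M and mitotic gene (rows, grouped by role) on each array (columns, in the order nsEP, heat shock and sham) minus the mean of the 3 sham arrays. CKS2, TTK and KIF11 stand out as blue on all 3 heat shock arrays, and no row stands out in the same way on the nsEP arrays.

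The second comparison set heat shock against sham. Heat shock lowered 3 of the 39 genes and raised none by limma at an adjusted p under 0.05. The 3 were TTK, which fell 2.58-fold, CKS2, which fell 2.32-fold, and KIF11, which fell 1.81-fold. Among all genes 1.72% were called higher and 3.99% lower after heat shock, and in the brightest quartile 1.66% were called higher and 9.73% lower, so 3 of 39 (7.69%) lay between the 2 backgrounds for lower genes. An unadjusted p under 0.05 was reached by 9 of 39 members (23.1%), against 22.0% of all genes and 37.0% of the brightest quartile. This second share lay near that of all genes and below that of the brightest quartile. Neither share exceeded that of the brightest quartile, so the account below is of single members.

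CKS2, one of a pair of small proteins that bind CDK1 and other cyclin-dependent kinases, had log2 signals of 14.16, 14.25 and 14.41 on the nsEP arrays and 13.14, 12.87 and 12.88 on the heat shock arrays, against 14.21, 13.99 and 14.33 on the sham arrays. The heat shock arrays were the 3 lowest and did not overlap either other group, while nsEP and sham arrays overlapped. The log2 ratio of heat shock over sham was -1.22 ± 0.16 (SE, n = 3 each, limma adjusted p = 0.000867), and -1.35 relative to the median of all genes.

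CKS1B, the paralogue of CKS2, moved the other way in value but was not called. Its log2 signals were 13.21, 13.14 and 13.27 on nsEP arrays and 13.45, 13.46 and 13.21 on heat shock arrays, against 13.01, 12.78 and 13.06 on sham arrays, the lowest group and one that neither other group overlapped. The log2 ratio was 0.42 ± 0.15 (SE, n = 3 each, limma adjusted p = 0.139), and the value was -0.61 when arrays were scaled to their poly-A spike-ins, bacterial transcripts added before labelling. A factor that scales a whole array cancels in the within-array difference between the pair. CKS1B minus CKS2 was -0.95, -1.11 and -1.14 on nsEP arrays and 0.31, 0.59 and 0.33 on heat shock arrays, against -1.19, -1.21 and -1.27 on sham arrays. The shift was 1.64 on the log2 scale for heat shock against sham and 0.16 for nsEP against sham, without overlap in either (exact two-sided permutation test, p = 0.1 for each, the smallest that 3 against 3 arrays allow). The heat shock shift contains the fall of CKS2 already called on these same arrays, so its test adds no separate support.

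The kinase and cyclins of the same complex were not called. CDK1, the kinase that drives mitosis, had log2 signals of 14.11, 13.91 and 13.53 on nsEP arrays and 13.65, 13.86 and 13.32 on heat shock arrays, against 13.97, 13.65 and 14.24 on sham arrays. The groups overlapped, and the log2 ratio of heat shock over sham was -0.34 ± 0.21 (SE, n = 3 each, limma adjusted p = 0.424). CCNB1, cyclin B1, had 13.33, 12.97 and 13.17 on nsEP arrays and 13.13, 12.88 and 13.12 on heat shock arrays, against 13.53, 13.06 and 13.11 on sham arrays, again overlapping. CCNB2 and CCNA2, the cyclins B2 and A2, had log2 ratios of 0.26 and 0.01 after heat shock. The second CCNA2 probe set, also in the brightest quartile, gave -0.58 ± 0.22 (SE, n = 3 each, limma adjusted p = 0.171). The CDC25 phosphatases CDC25B and CDC25C had ratios of 0.05 and 0.26.

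TTK, the kinase also called MPS1 that starts spindle checkpoint signalling at kinetochores, had log2 signals of 11.89, 11.38 and 11.78 on nsEP arrays and 10.70, 10.06 and 10.41 on heat shock arrays, against 12.04, 11.62 and 11.63 on sham arrays. The heat shock arrays lay below every array of both other groups. The log2 ratio of heat shock over sham was -1.37 ± 0.20 (SE, n = 3 each, limma adjusted p = 0.00195), the largest in size among the 39, and -1.51 relative to all genes. The other checkpoint members were not called: BUB1 and BUB1B, checkpoint kinases or kinase-like proteins, had ratios of 0.07 and -0.31, and MAD2L1, which inhibits CDC20, had -0.01 with an interval of -0.35 to 0.33.

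KIF11, the plus-end kinesin that pushes spindle poles apart, had log2 signals of 11.97, 11.97 and 11.40 on nsEP arrays and 11.19, 10.98 and 11.00 on heat shock arrays, against 12.10, 12.00 and 11.64 on sham arrays. The heat shock arrays were again the 3 lowest. The log2 ratio of heat shock over sham was -0.86 ± 0.18 (SE, n = 3 each, limma adjusted p = 0.0208). This call was the least secure of the 3: the adjusted p was between 0.0233 and 0.0879 with 1 array left out, and passed 0.05 for 5 of the 6 arrays. The calls of CKS2 and TTK held with any 1 array left out, at adjusted p-values of at most 0.00811 and 0.0119. All 3 genes had a single probe set, so no second probe set checks them.

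**Figure D2:**
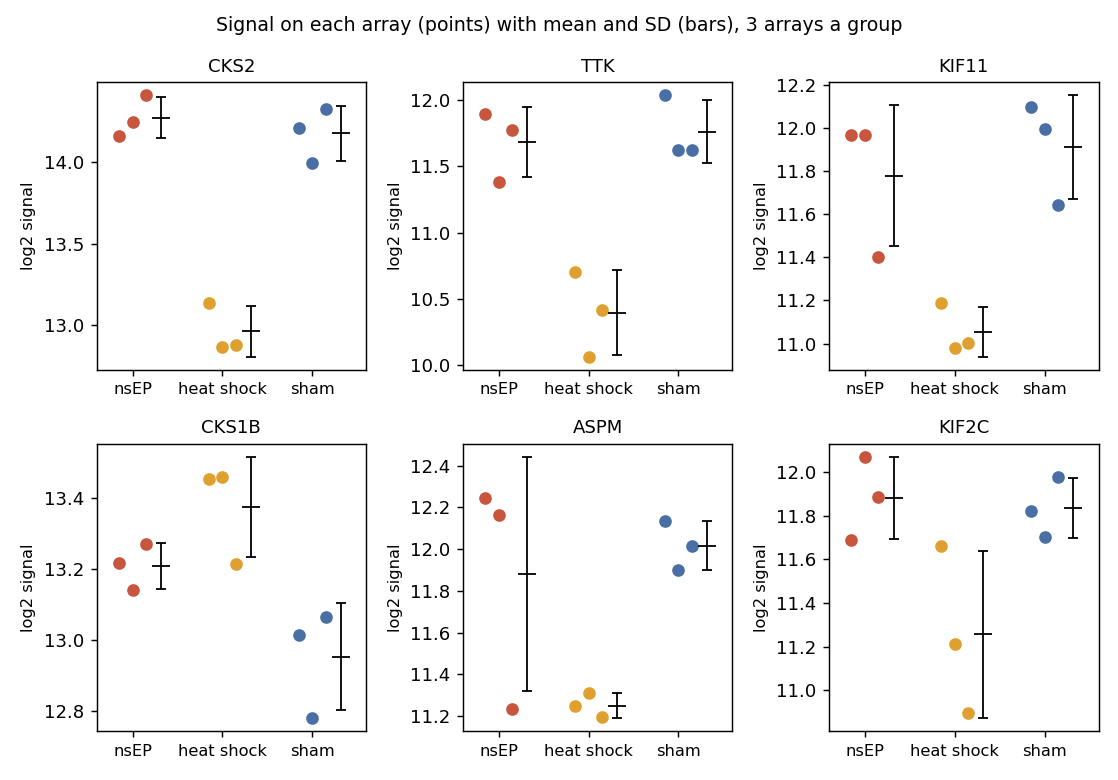
Log2 signal (vertical axis) of 6 members on each nsEP, heat shock and sham array (points), with the mean and SD of the 3 arrays of each group (bars). The heat shock arrays of CKS2, TTK and KIF11 lie below all other arrays, those of CKS1B lie above the sham arrays, and for ASPM the nsEP replicate 3 array (11.23) lies among the heat shock arrays.

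The other kinesins lay below 0 after heat shock without passing the test. KIF2C, which depolymerises microtubules at kinetochores, had log2 signals of 11.66, 11.21 and 10.90 on heat shock arrays, against 11.82, 11.70 and 11.98 on sham arrays. The groups did not overlap, its ratio was -0.58 ± 0.19 (SE, n = 3 each, limma adjusted p = 0.123), and its second probe set gave -0.53. KIF23, a subunit of the centralspindlin complex of the spindle midzone, had a ratio of -0.50. KIF20A and KIF4A, motors of the midzone and of chromosome arms, had -0.22 and -0.07. In value all 5 kinesins were thus below 0, against 8073 of all 19775 genes and 2571 of the 4944 brightest, and KIF4A stood at 0.03 after quantile normalization.

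The 3 centromere members also lay below 0 after heat shock, and none was called. CENPA, the histone H3 variant that marks centromeres, had a log2 ratio of -0.48, with heat shock arrays spread between 9.14 and 10.14 and sham arrays between 10.01 and 10.28. CENPE, the kinesin that carries chromosomes to the spindle equator, had 10.51, 10.25 and 10.39 on heat shock arrays, against 11.03, 10.67 and 11.05 on sham arrays, without overlap. Its ratio was -0.54 ± 0.20 (SE, n = 3 each, limma adjusted p = 0.18). CENPF, a large kinetochore protein, had -0.32, and its next probe set gave -0.03.

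Among the spindle proteins ASPM had the most negative heat shock ratio. ASPM, which acts at spindle poles, had log2 signals of 12.25, 12.16 and 11.23 on nsEP arrays and 11.25, 11.31 and 11.19 on heat shock arrays, against 12.14, 11.90 and 12.02 on sham arrays. Heat shock and sham arrays did not overlap, but the nsEP replicate 3 array lay inside the heat shock range. The ratio of heat shock over sham was -0.77 ± 0.22 (SE, n = 3 each, limma adjusted p = 0.082). Adjusted p-values fell below 0.05 in 5 of 19 alternative analyses, with 0.00677 when only the 6 arrays compared entered the fit. The other probe sets of ASPM, which were dimmer, gave heat shock ratios of -0.13 and -0.49. KIF11, KIF23, CENPE and ASPM were the members in which nsEP replicate 3 lay over 0.5 below both other nsEP arrays, and CDC20 and KIF20A those in which it lay over 0.5 above them. The 3′ to 5′ ratios of GAPDH and ACTB on that array are given above, and their part in these values was not tested.

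None of the remaining spindle, cytokinesis and chromosome members was called after heat shock, with log2 ratios from -0.33 to 0.39. TPX2, an activator of Aurora A, and NUSAP1, PRC1 and DLGAP5, which bind spindle microtubules, had heat shock ratios between -0.19 and 0.11. HMMR, a microtubule-binding protein of the spindle, had 0.39. The cytokinesis genes ECT2 and ANLN had -0.33 and 0.02. TOP2A, the topoisomerase that untangles sister chromatids, had log2 signals of 12.94, 12.96 and 12.51 on nsEP arrays and 12.77, 12.70 and 12.73 on heat shock arrays, against 12.93, 13.07 and 12.81 on sham arrays. Its heat shock arrays lay below the sham arrays by a small step, at a ratio of -0.20 ± 0.16 (SE, n = 3 each, limma adjusted p = 0.534). MKI67, the proliferation marker Ki-67, had 10.66, 10.45 and 10.45 on nsEP arrays and 10.58, 10.36 and 10.45 on heat shock arrays, against 10.85, 9.93 and 10.52 on sham arrays, so the sham arrays spanned those of both other groups. BIRC5, the survivin subunit of the passenger complex, had a ratio of 0.12.

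Of the mitotic kinases and regulators of the anaphase-promoting complex, 6 of 8 lay above 0 after heat shock on the deposited scale, with no call. Of all 19775 genes 11702 lay above 0 there, and of the 4944 brightest 2373. Relative to the median of all genes PLK1 moved to -0.01, and the others of these 6 stayed above 0. PLK1, the polo kinase, had log2 signals of 8.85, 8.64 and 8.91 on nsEP arrays and 9.12, 8.71 and 8.95 on heat shock arrays, against 9.24, 8.47 and 8.69 on sham arrays. AURKA, Aurora A, had 12.13, 11.81 and 12.52 on nsEP arrays and 12.35, 11.94 and 12.35 on heat shock arrays, against 12.97, 12.01 and 12.19 on sham arrays. For both genes sham replicate 1 was the highest of the 9 arrays, and all groups overlapped. AURKB, Aurora B of the passenger complex, had a ratio of 0.42 ± 0.17 (SE, n = 3 each, limma adjusted p = 0.224), and NEK2, which splits centrosomes, had 0.30. In both the heat shock arrays lay above the sham arrays. PBK, a mitotic kinase, had -0.21.

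CDC20, the activator of the anaphase-promoting complex, had log2 signals of 11.84, 11.72 and 12.47 on nsEP arrays and 12.47, 12.45 and 12.39 on heat shock arrays, against 12.40, 11.83 and 12.04 on sham arrays. Heat shock and sham overlapped at sham replicate 1, and the ratio was 0.34 ± 0.20 (SE, n = 3 each, limma adjusted p = 0.405). UBE2C, the conjugating enzyme of the complex, had 0.36 ± 0.13 (SE, n = 3 each, limma adjusted p = 0.168), with no overlap. PTTG1, securin, had 0.19, from a probe set of the kind that can also bind near-identical copies. The 3 values above 0 were 0.32, 0.31 and -0.03 after quantile normalization, and all 39 members lay below 0 when arrays were scaled to the poly-A spike-ins.

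**Figure D3:**
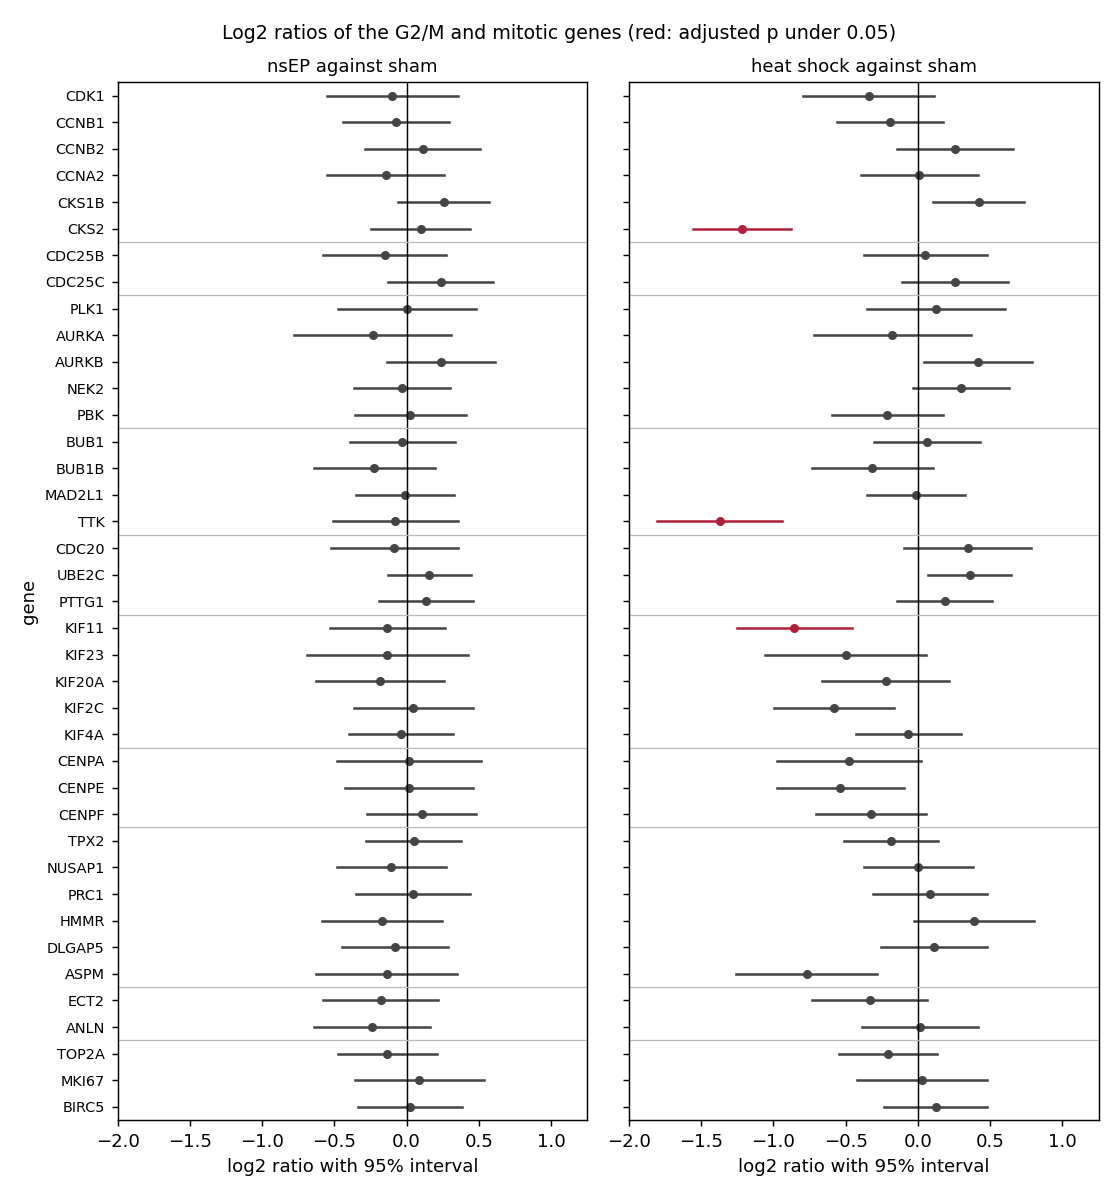
Log2 ratio of each member (points) with its 95% interval (lines) for nsEP against sham on the left and heat shock against sham on the right, with genes grouped by role and called genes in red. Every interval on the left includes 0, and the called genes on the right are CKS2, TTK and KIF11.

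Counted over all members, 5 had all heat shock arrays above all sham arrays (CKS1B, CDC25C, AURKB, NEK2 and UBE2C), which is 12.8%, against 17.5% of all genes and 19.8% of the brightest quartile. A further 8 had all heat shock arrays below all sham arrays (CKS2, TTK, KIF11, KIF23, KIF2C, CENPE, ASPM and TOP2A), which is 20.5%, against 13.7% of all genes and 27.5% of the brightest quartile. The log2 ratio was over 0.5 in size in 7 members (17.9%), against 40.9% of all genes and 23.6% of the brightest quartile. The median ratio of the members was -0.01, which is -0.15 relative to the median of all genes but 0.01 relative to that of the brightest quartile. Relative to all genes the value was -0.25 without sham replicate 2, an array on which 8 of the 39 members lay above the mean of the sham arrays. The count above the mean of their own group was also low on the other replicate 2 arrays, at 12 for nsEP and 15 for heat shock, and high on the replicate 1 arrays, at 28 for nsEP, 32 for heat shock and 34 for sham. On the replicate 3 arrays it was 18 for nsEP, 12 for heat shock and 18 for sham.

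**Figure D4:**
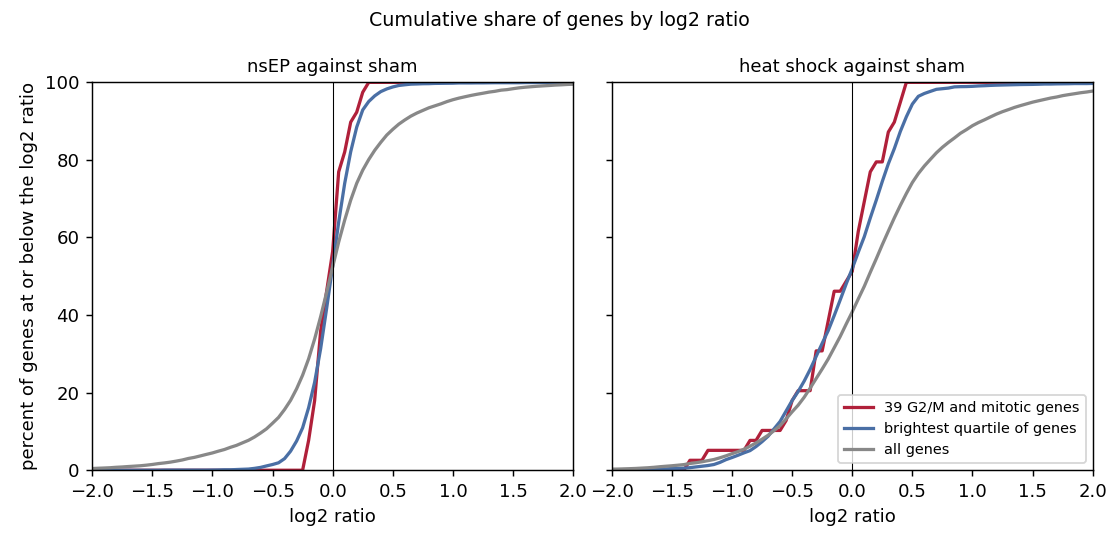
Percent of genes (vertical axis) at or below each log2 ratio (horizontal axis) for nsEP against sham on the left and heat shock against sham on the right. The 39 members follow the brightest quartile of genes more closely than all genes, and their nsEP curve is confined between -0.24 and 0.26.

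The third comparison set nsEP directly against heat shock, over the same nsEP and heat shock arrays, and so tested whether the effects of the 2 exposures, which share the sham arrays, differed. The 3 genes called were those that heat shock lowered. CKS2 was higher in nsEP cells by 1.31 ± 0.16 on the log2 scale (SE, n = 3 each, limma adjusted p = 0.000498), TTK by 1.29 ± 0.20 (adjusted p = 0.00265) and KIF11 by 0.72 ± 0.18 (adjusted p = 0.0422). None was called lower. The backgrounds were 3.83% higher and 2.16% lower over all genes, and 9.14% higher and 1.92% lower in the brightest quartile. The KIF11 call was lost without any 1 of 5 of the 6 arrays, with adjusted p-values up to 0.16, and was kept without nsEP replicate 3.

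Outside those 3 genes the values of nsEP against heat shock were moderate. KIF2C and ASPM both had a ratio of 0.63 (limma adjusted p = 0.0862 and 0.143). The second KIF2C probe set was called at 0.86 (limma adjusted p = 0.0131), while the other ASPM probe sets, which were dimmer, gave 0.05 and 0.07. HMMR had the most negative ratio, -0.55 (limma adjusted p = 0.128). Its nsEP arrays were at 12.71, 12.46 and 12.85 and its heat shock arrays at 13.45, 13.01 and 13.22, without overlap. The second HMMR probe set, also in the brightest quartile, gave -0.16 (limma adjusted p = 0.693). In 6 members (15.4%) all nsEP arrays lay above all heat shock arrays and in 2 (5.13%) below, against 10.7% and 14.4% of all genes and 21.9% and 12.1% of the brightest quartile. An unadjusted p under 0.05 was reached by 8 members (20.5%), against 20.9% of all genes and 32.2% of the brightest quartile. Without nsEP replicate 3 the counts were 5 higher and 1 lower: CENPE and ASPM were then called higher and CDC20 lower.

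The 38 other probe sets, of 21 members, served as a check. Of the 14 that were themselves in the brightest quartile, 13 gave a ratio within 0.5 of the standing probe set for nsEP against sham, 13 for heat shock against sham and 10 for nsEP against heat shock. For nsEP against sham this was a weak check, since only 2.67% of genes in the brightest quartile had a ratio over 0.5 in size. The share for unrelated pairs of probe sets was not computed, and CKS2, TTK and KIF11 were not covered. None of the 38 was called against sham in either comparison. For nsEP against heat shock 3 were called: those of CCNA2 and KIF2C were higher, and a dim one of AURKB was lower at -1.86 (limma adjusted p = 0.00778), where the standing probe set gave -0.18. The CCNA2 pair gave 0.85 (adjusted p = 0.0424) and, for the standing probe set, -0.15, so these probe sets disagreed in sign. The 4 MKI67 probe sets had heat shock ratios between -0.35 and 0.03.

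Longer genes tended to have lower ratios after heat shock, and after nsEP only with the nsEP replicate 3 array included. Across the 39 members the gene length and the log2 ratio of heat shock over sham had a Pearson r of -0.30 and a Spearman coefficient of -0.39, and the values for nsEP over sham were -0.35 and -0.33. Among the 4944 brightest genes the heat shock values were -0.22 and -0.27, and those of nsEP -0.18 and -0.20. Without nsEP replicate 3, an alternative chosen after the data were seen, the nsEP values were 0.05 and 0.04 across the members and -0.02 and 0.0001 among the brightest genes. These are correlations across genes, which share arrays and are not independent replicates, and both comparisons use the same sham arrays. Length did not separate the 3 called genes: CKS2 spans 5509 bases, TTK 37879 and KIF11 62266.

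Genes next to the members in the pathway were read from lists of 120 further G2/M genes, of which 117 were measured. For nsEP against sham 0 were called in either direction by limma. An unadjusted p under 0.05 was found for 3 (2.56%), against 5.40% of all genes and 5.04% of the brightest quartile. These were GADD45A, with a log2 ratio of 0.59, LIN54, with -0.54, and ANAPC7, with -0.40. After heat shock 1 was called higher and 11 lower, or 9.40% of 117 lower against the 3.99% of all genes and 9.73% of the brightest quartile given above. The gene that rose was GADD45A, a stress-induced inhibitor of CDK1 and cyclin B, by 1.51 ± 0.22 (SE, n = 3 each, limma adjusted p = 0.00195). It was also lower in nsEP than in heat shock cells, by a log2 ratio of -0.92 (adjusted p = 0.0324), a call lost without any 1 of the 6 arrays. CDKN1A, the p21 inhibitor, had 2.23 with an adjusted p of 0.051 and was not called.

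The 11 genes that heat shock lowered were spread over several roles. NFYA, the DNA-binding subunit of NF-Y, fell by 1.11 on the log2 scale (limma adjusted p = 0.00215), and 2 members of the MuvB-linked DREAM complex, RBL1 and LIN52, fell by 1.12 (adjusted p = 0.0226) and 0.68 (adjusted p = 0.0269). FBXO5, the EMI1 inhibitor of the anaphase-promoting complex, fell by 1.19 (adjusted p = 0.0012), and ESPL1, the separase that securin inhibits, by 0.77 (adjusted p = 0.0464). At the centromere and kinetochore CENPQ fell by 1.39, MIS12 by 0.79, KNL1 by 0.69 and HJURP, the chaperone of CENPA, by 0.65. The kinesin KIF20B fell by 1.34 and the spindle protein CKAP2L by 0.88, and the KIF20B value was 0.04 when the median over its 3 probe sets was used. RBL1, LIN52, ESPL1, KNL1, HJURP and CKAP2L each lost the call in at least 4 of the 6 fits with 1 array left out.

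For nsEP against heat shock 9 of the 117 (7.69%) were called higher and 1 (0.855%) lower, against 3.83% and 2.16% of all genes and 9.14% and 1.92% of the brightest quartile. They included NFYA (1.26), FBXO5 (0.98), CENPQ (1.30), MIS12 (0.76) and KIF20B (1.16), and PDS5B, a cohesin regulator, at 0.78 (limma adjusted p = 0.0156). PDS5B and KIF20B turned to -0.26 and -0.68 with the median over all their probe sets. The G1/S and replication list, measured at 37 of 38 genes, gave 0 calls for nsEP against sham. Of all genes 0.0506% were called higher and 0.0101% lower there. Unadjusted limma p was under 0.05 for CDT1 (-0.85), TK1 (0.45) and HELLS (-0.38). They were 8.11% of 37, against 5.40% of all genes and 5.04% of the brightest quartile. All nsEP arrays lay below all sham arrays in 5 (13.5%), against 5.41% and 5.04%. They lay above in 2 (5.41%), against 4.56% and 3.94%. For nsEP against heat shock 3 (8.11%) were called higher and 0 lower, beside the shares given above. After heat shock 0 were called higher and 4 lower. The share lower, 10.8%, stood beside 3.99% of all genes and 9.73% of the brightest quartile. Those 4 were PCNA, the sliding clamp of DNA polymerases, which fell by 1.41 (adjusted p = 0.00124), FEN1, the flap nuclease, by 1.09 (adjusted p = 0.00361), HELLS, a chromatin remodeller, by 0.93 (adjusted p = 0.00906), and CCNE2, cyclin E2, by 0.87 (adjusted p = 0.00881).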

How the data were processed

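RNA from 3 nsEP, 3 heat shock and 3 sham samples of Jurkat cells was hybridised to 1 array each, and the labels call the samples of a group biological replicates. The authors deposited log2 values of the MAS5 signal, 1 value per probe set and array, and the values show that each array had been scaled to a common trimmed mean. Detection calls were not used here, the number of arrays limits the precision, and no depth applies.

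Of 54675 probe sets, 62 Affymetrix controls were left out and 54613 were tested. GEO's platform annotation gave 1 gene symbol to 41091 probe sets, several to 1801 and did not list 11721, and the first of these made 19775 genes. Each log2 ratio came from 1 limma fit over the 9 arrays (limma 3.58.1 in R 4.3.3, eBayes with a variance trend), with Benjamini-Hochberg adjustment over the 54613 probe sets and calls at 0.05. Gene ratios are differences of log2 means, their errors are standard errors of that fit, and intervals are at 95%. The procedure was tested on simulated data.

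All members were described by role. Array values were given for members called in any comparison and for CDK1, CCNB1, PLK1, AURKA, CDC20, TOP2A and MKI67. Values of other members that did not overlap or showed a disagreement were added after their values were seen. From each other list up to 4 called genes with the largest ratios were named in a comparison. For nsEP against sham none of the G2/M and G1/S lists had a call, and their genes with an unadjusted p under 0.05 were named. The members and lists were chosen with earlier results of these data known. Promoter windows came from RefSeq. Alternatives covered array scaling, dim signals, the variance model, the methods' t-test (Student's), the choice of probe set, the replicate block and leaving out each array.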

Additional observations from a re-analysis of the deposited data

Results flagged for a closer look

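For 3 members the effect of the pulses and that of heat shock differed by the test of the difference itself, which equals nsEP against heat shock because both effects use the same sham arrays. The nsEP effect exceeded the heat shock effect by 1.31 on the log2 scale for CKS2 (limma adjusted p = 0.000498), 1.29 for TTK (adjusted p = 0.00265) and 0.72 for KIF11 (adjusted p = 0.0422). CKS2 and TTK had all 3 nsEP arrays above all 3 heat shock arrays, as did KIF11, and each has a single probe set. No group had enough arrays for a search for single outlying values.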

How the results depend on the processing

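No member was called for nsEP against sham, or higher after heat shock, under any alternative run. The count of members lower after heat shock, 3, became 5 with arrays centred on the median of all genes and 6 on the scale of the poly-A spike-ins. By the methods' t-test it was 0, both with Benjamini-Hochberg adjustment and at the methods' thresholds of p and of log ratio, and it ranged over 2 to 3 with 1 array left out. Spike-in scaling moved the median of all genes to -0.89 for heat shock against sham, and 39 members then lay below 0. The 3 members higher in nsEP than in heat shock cells became 1 without the variance trend and 0 under both forms of the t-test, with a range of 2 to 5 over arrays left out. The count lower, 0, became 1 with the median over all probe sets of a gene and ranged over 0 to 1 with 1 array left out.

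The median log2 ratio relative to all genes ranged over -0.11 to 0.10 for nsEP against sham with 1 array left out. For heat shock against sham, -0.15 became -0.24 with the median over probe sets and 0.0127 relative to the brightest quartile, and ranged over -0.25 to -0.0743 with 1 array left out. For nsEP against heat shock, 0.14 became -0.0445 after quantile normalization and -0.0023 relative to the brightest quartile. Of the uncalled members, 19 with ratios above 0 after heat shock lay below 0 with spike-in scaling. Among the called genes named here the ratio changed sign in 4 cases. With the median over probe sets KIF20B was 0.0379 for heat shock against sham and -0.68 for nsEP against heat shock, and PDS5B was -0.26 for nsEP against heat shock. With spike-in scaling GADD45A was 0.0305 for nsEP against heat shock. The causes were not tested.

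Deviations of same-numbered arrays correlated at -0.09 to 0.07 over all genes, -0.28 to 0.48 over the brightest quartile and -0.56 to 0.45 over the members, with the highest values between replicate 2 arrays in the brightest quartile and among the members. Of 18 searches for the best match of an array in another group, 6 found its own number over all genes, 10 over the brightest quartile and 5 over the members. A correlation across genes does not register a shift common to all of them, such as the counts above the group mean given earlier. The labels do not say that a number marks a shared culture or day, and the numbers were not treated as pairs. The replicate block gave 3 members lower after heat shock, 0 for nsEP against sham, and 3 higher and 0 lower for nsEP against heat shock, the same counts.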
